A study of Mus musculus with 6 samples.

Results

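CpG methylation outside CpG islands (CGIs) was compared between CD8+ T cells of mice that carried non-mutant human STAT5B (hSTAT5B) and of wild-type (WT) mice. The genome was divided into tiles of 5 kb on the 19 autosomes, and a tile was described by its CpGs that lay outside CGIs and farther than 1 kb from any annotated transcription start. A tile was compared where each of the 4 libraries covered at least 3 such CpGs with at least 5 reads, which held for 106144 of the 360585 tiles with any such CpG in the series. Each library's level for a tile was the mean, not weighted by depth, of the methylated share of reads at its CpGs.

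The libraries came from CD8+ T cells enriched with a MagniSort kit from lymph nodes of 13-week-old C57BL/6N mice, with 1 mouse per library and 2 libraries per genotype. hSTAT5B mice carried the transgene as hSTAT5B +/T, in a vector in which the Vav1 promoter drives expression in hematopoietic cells from the stem cell stage on, so that expression is not limited to T cells. The genotype is represented by 1 transgenic line. The 2 libraries of hSTAT5B N642H, the mutant form in the same vector, were used only to sort tiles by level and as values set beside the others. Reduced representation bisulfite sequencing (RRBS) reads fragments cut with MspI at CCGG after bisulfite treatment, which turns unmethylated cytosine into uracil and leaves methylated cytosine as it is.

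Most CpGs of the mammalian genome lie outside CGIs and are methylated, and the enzyme DNMT1 copies this methylation to the new strand after replication. Low levels outside CGIs are found mainly at enhancers and other regulatory DNA that transcription factors occupy, and they differ between cell types and between naive and effector T cells. STAT5B is activated by JAK kinases below the receptors for IL-2, IL-7, and IL-15, binds DNA as a dimer, and supports survival, proliferation, and effector functions of CD8+ T cells.

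The files held 43291086 to 54296402 reads on CpGs in these 4 libraries. The median tile had 5 to 6 covered CpGs and 118 to 153 reads per library, and reads alone gave a median standard error of 2.78 to 3.16 percentage points per tile and library, which covers counting error only, because RRBS reads carry no molecular identifiers. WT replicate 1 stood apart. It listed 3445555 CpGs with a median of 5 reads, whereas the other 3 libraries listed 2659254 to 3067773 CpGs with a median of 7 reads, and its Pearson's r across tiles with the other 3 libraries was 0.893 to 0.903, against 0.912 to 0.917 among those 3. Results are therefore also given without it. Tiles are not independent replicates, and these r are descriptions.

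Of the marker genes of CD8+ T cells, Cd8a, which encodes the CD8 alpha chain, had 2 tiles within 10 kb, and Cd8b1 had none. At the tile chr6:71365001-71370000 the levels over CpGs covered in all 4 libraries were 80.6% and 49.7% in WT and 30.5% and 53.6% in hSTAT5B. At the tile chr6:71370001-71375000 they were 49.4% and 17.03% in WT and 18.01% and 25.2% in hSTAT5B. WT replicate 1 was the highest library at both, and the other WT library was within the range of the hSTAT5B libraries at the first and just below it at the second. On the same CpGs, the mean over tiles near 19 genes of T cells was 67.9% and 65.8% in WT and 66.2% and 66.3% in hSTAT5B. Tiles near genes of B cells were at 75.02% and 77.2% in WT and 77.0% and 77.6% in hSTAT5B. Tiles near genes of myeloid cells were at 83.3% and 83.4% in WT and at 84.2% and 84.6% in hSTAT5B. In a bulk library, another mixture of cells and another methylation level within the same cells cannot be told apart.

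The sequences of 7 stretches from tiles with a wide gap between the genotypes on the same CpGs are printed first, in both directions and from coding, intronic, and intergenic sequence, because they show what single tiles of this comparison consist of. They are not the 7 farthest apart: stretches in Cdc42ep1 and Stx8 differed by 21.7 and 18.1 percentage points and are not printed. They belong to tiles named by the size of the gap between the genotypes, a choice made after the values were seen, so that their differences are descriptions. They are from the GRCm38 (mm10) sequence, plus strand, 5′ to 3′, and capitals mark each CG that had at least 5 reads in all 4 libraries.
Tbx21 coding exon, chr11:97098915-97099117: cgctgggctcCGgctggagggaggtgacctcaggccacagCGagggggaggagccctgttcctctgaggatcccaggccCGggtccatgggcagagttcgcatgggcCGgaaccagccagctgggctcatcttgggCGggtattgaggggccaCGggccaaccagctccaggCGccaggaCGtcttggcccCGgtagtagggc
Irf8, chr8:120747314-120747515: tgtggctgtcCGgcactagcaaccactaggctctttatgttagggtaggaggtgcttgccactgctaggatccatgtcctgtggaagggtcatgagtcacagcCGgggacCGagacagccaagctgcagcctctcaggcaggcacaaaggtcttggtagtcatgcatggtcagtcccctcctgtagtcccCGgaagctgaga
near Gli2, chr1:119098141-119098270: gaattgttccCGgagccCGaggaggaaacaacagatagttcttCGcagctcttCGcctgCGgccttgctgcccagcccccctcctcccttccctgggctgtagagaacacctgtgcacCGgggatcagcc
Lef1, chr3:131160441-131160625: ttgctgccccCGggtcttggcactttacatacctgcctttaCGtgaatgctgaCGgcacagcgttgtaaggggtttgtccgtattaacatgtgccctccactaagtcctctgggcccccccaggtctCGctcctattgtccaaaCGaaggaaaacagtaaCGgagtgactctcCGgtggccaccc
near Csl, chr10:99600007-99600233: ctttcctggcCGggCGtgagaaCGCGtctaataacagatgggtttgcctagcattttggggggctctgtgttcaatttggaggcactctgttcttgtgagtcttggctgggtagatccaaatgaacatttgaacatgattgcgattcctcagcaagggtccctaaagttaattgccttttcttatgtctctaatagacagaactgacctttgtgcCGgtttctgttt
Ksr2, chr5:117593506-117593702: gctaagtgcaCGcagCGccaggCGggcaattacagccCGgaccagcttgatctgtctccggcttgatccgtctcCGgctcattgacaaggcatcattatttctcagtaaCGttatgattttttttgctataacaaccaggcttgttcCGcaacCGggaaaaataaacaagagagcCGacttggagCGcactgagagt
Hs3st3b1, chr11:63919894-63919961: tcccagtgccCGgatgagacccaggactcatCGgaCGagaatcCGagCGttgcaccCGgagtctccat

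The stretch in Tbx21, which encodes T-bet, the master transcription factor of type 1 effector T cells, is coding sequence of a gene on the minus strand (ENSMUSG00000001444.2, chr11:97098071-97115331). Its 9 marked CpGs had mean levels of 34.5% and 43.1% in WT and 63.5% and 60.5% in hSTAT5B, from 112 to 127 reads per library. The hSTAT5B mean was the higher at 9 of the 9 CpGs. In Irf8, which encodes an interferon regulatory factor of myeloid cells, B cells, and effector CD8+ T cells, the 4 marked CpGs lay in the gene outside exons, with 65.03% and 82.5% in WT and 96.3% and 96.6% in hSTAT5B. The stretch 44.1 kb from the start of Gli2, a transcription factor of Hedgehog signaling, lay outside genes. Its 6 CpGs were at 17.9% and 24.3% in WT and at 70.1% and 52.1% in hSTAT5B.

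The other 4 stretches were lower in hSTAT5B. In Lef1, a transcription factor of naive T cells and their precursors (ENSMUSG00000027985.14, chr3:131110471-131224356), the 7 marked CpGs lay in an intron, with levels of 69.3% and 39.8% in WT and 25.5% and 27.9% in hSTAT5B, and 7 of 7 were lower. WT replicate 1 was far above WT replicate 2 there. The 5 CpGs in the stretch nearest to Csl, which is 159 kb from that gene's start and outside genes, had 95.9% and 81.9% in WT and 38.3% and 13.1% in hSTAT5B. This was the largest difference among the 7 stretches, and hSTAT5B rested on 72 and 46 reads. Of its 5 CpGs, 4 lay in soft-masked sequence, which marks repeats. In Ksr2, a scaffold protein of the RAF-MEK-ERK cascade, 10 CpGs were at 87.5% and 87.5% in WT and at 76.8% and 76.4% in hSTAT5B, from 310 to 597 reads, and the replicates of each genotype were close together. In Hs3st3b1, an enzyme that sulfates heparan sulfate, 6 CpGs were at 28.8% and 36.2% in WT and at 14.1% and 19.4% in hSTAT5B.

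Across all tiles, the mean level differed between the genotypes by less than the spread between libraries. It was 86.9% and 87.4% in the WT libraries and 87.3% in both hSTAT5B libraries, with genotype means of 87.2% ± 0.402 (SD, n = 2) for WT and 87.3% ± 0.0038 (SD, n = 2) for hSTAT5B. The difference was 0.143 percentage points, whereas WT replicate 1 minus WT replicate 2 was -0.568, and both hSTAT5B libraries lay between the WT libraries. The 2-sided exact permutation test gave p = 1, where the smallest p that 2 libraries against 2 allow is 0.333. Without WT replicate 1 the sign changed, to -0.141. The difference was positive on 19 of 19 chromosomes, from 0.013 on chromosome 6 to 0.314 on chromosome 5, and on 2 of them without WT replicate 1. For comparison, the hSTAT5B N642H libraries were at 86.0% and 86.2% over the 101080 tiles they covered as well.

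No single tile passed the test. A test in limma of the log2 ratio of methylated and unmethylated read counts called 0% of the 106144 tiles (0 tiles at a Benjamini-Hochberg adjusted p under 0.05, smallest adjusted p = 0.891). An unadjusted p under 0.05 was found at 5887 tiles (5.55%), 3294 higher and 2593 lower in hSTAT5B. A quasi-binomial model of the reads called 0 as well, with 5699 tiles at an unadjusted p under 0.05. When the reads of both mice of a genotype were added up, Fisher's exact test called 5677, but this ignores how mice of 1 genotype differ. The median standard error of a tile's difference in limma was 0.56 on the log2 scale.

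The genotypes differed by at least 5 percentage points at 25523 tiles (24.0%), 13290 higher and 12233 lower in hSTAT5B, and by at least 10 at 7370 tiles (6.94%), 3609 higher and 3761 lower. To read these counts, the same 4 libraries were put into 2 mixed groupings, each of which sets 1 WT and 1 hSTAT5B library against the other 2. These groupings had 24823 and 24944 tiles past 5 percentage points and 6953 and 6836 past 10. The SD of the tile differences was 5.46 percentage points between genotypes and 5.32 and 5.28 in the mixed groupings. The genotypes did not overlap, in either direction, at 33.6% of the tiles, against 31.9% and 32.1% in the mixed groupings. Tiles past 5 percentage points with no overlap made up 8.02% of all tiles on the higher side and 7.37% on the lower side. At 20 percentage points the counts were 956 between genotypes, 411 higher and 545 lower, and 847 and 776 in the mixed groupings. The grouping by genotype was slightly ahead of both mixed groupings in each of these counts. Single libraries of 1 genotype differed by an SD of 7.57 percentage points in WT and 7.42 in hSTAT5B, and single libraries of different genotypes by 7.14 to 8.09.

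**Figure D1:**
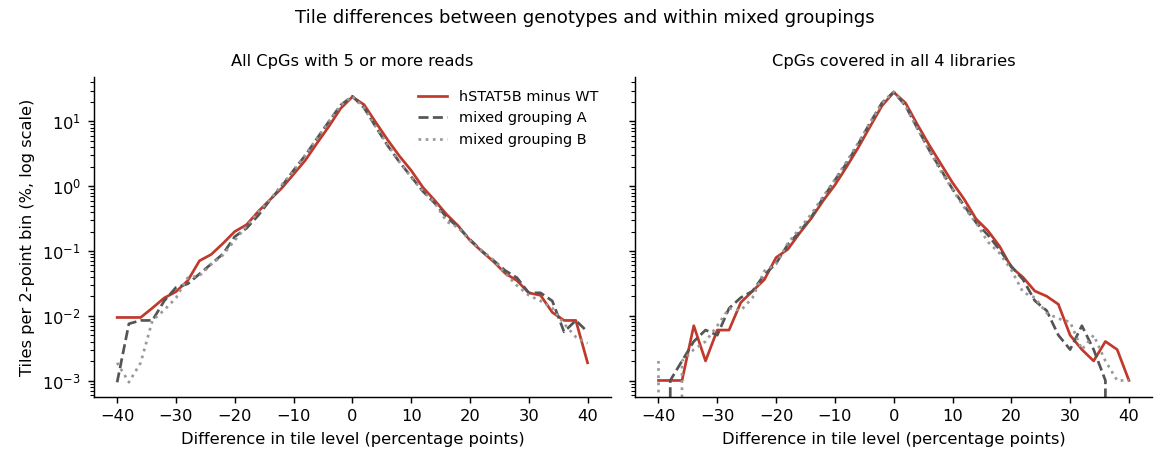
Share of tiles (%, log scale) by the difference in tile level in bins of 2 percentage points, for hSTAT5B minus WT and for the 2 mixed groupings of the same 4 libraries, over all covered CpGs (left) and over CpGs covered in all 4 libraries (right). The 3 curves lie almost on each other, with SDs of 5.46, 5.32, and 5.28 on the left and 4.31, 4.25, and 4.24 on the right.

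Libraries often covered different CpGs of the same tile, so that a tile mean could differ without any CpG having changed. When the tile means were restricted to CpGs that reached 5 reads in every one of the 4 libraries, 99599 tiles remained and the SD between genotypes fell to 4.31 percentage points, against 4.25 and 4.24 in the mixed groupings. Past 5 percentage points there were 17554 tiles, 9142 higher and 8412 lower, compared with 17088 and 17275 in the mixed groupings. Those with no overlap were 6.24% of the tiles on the higher and 5.75% on the lower side. The share of tiles with no overlap at any size was 33.0%, against 31.8% and 31.8%. The mean difference was 0.120 percentage points, and -0.182 without WT replicate 1. Both readings are given below for the level classes and most gene lists, but not for every context and tile.

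The spread shrank with the number of CpGs. Tiles in which the thinnest library covered 3 to 4 CpGs had an SD between genotypes of 6.24 percentage points, and tiles with 20 or more an SD of 2.18, beside 2.21 and 2.15 in the mixed groupings. In these 3338 best covered tiles, the genotypes did not overlap at 38.7%, against 31.1% and 30.1% in the mixed groupings, while 0.33% were past 10 percentage points.

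Tiles were then grouped by their level in the hSTAT5B N642H libraries, which the comparison does not use. With all covered CpGs, tiles of low and intermediate level were lower in hSTAT5B and highly methylated tiles slightly higher. In the 1975 tiles under 20% the levels were 14.9% and 13.01% in WT and 11.9% and 11.8% in hSTAT5B, a difference of -2.05 percentage points. Tiles at 20 to 50% differed by -1.81, and those at 50 to 80% by -0.538. Tiles at 90% or more were at 94.4% and 95.2% in WT and at 95.2% and 95.3% in hSTAT5B, a difference of 0.435. Each of these 4 differences had an exact permutation p of 0.333, the smallest possible. Most of the pattern was lost on CpGs covered in all 4 libraries. The tiles under 20% were then at 11.0% and 10.8% in WT and 10.6% and 10.4% in hSTAT5B, a difference of -0.413 that kept its sign without WT replicate 1, at -0.325. The tiles at 20 to 50% differed by -0.084, and those at 50 to 80% by 0.050. The tiles at 90% or more differed by 0.153, and by -0.098 without WT replicate 1.

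**Figure D2:**
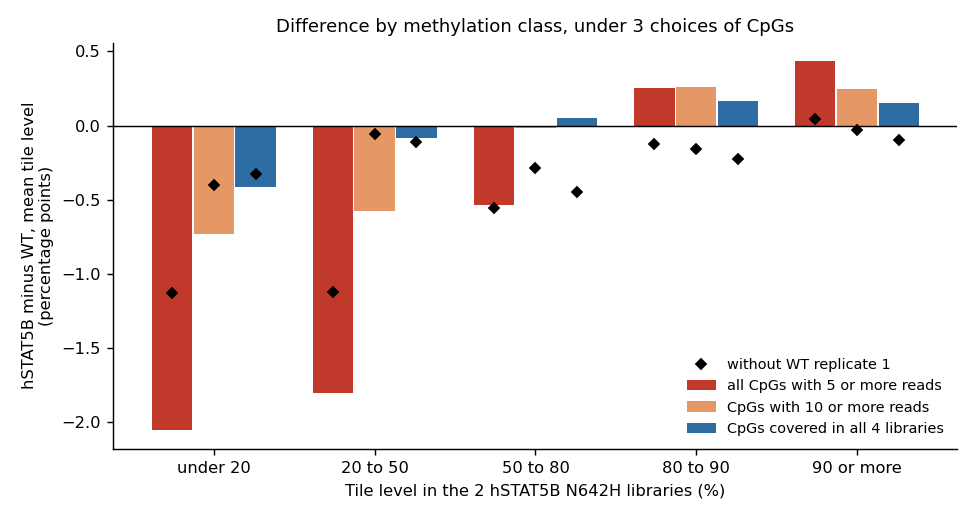
Difference of the mean tile level, hSTAT5B minus WT (percentage points), in 5 classes of tiles by their level in the hSTAT5B N642H libraries (%). Bars show 3 choices of CpGs, and diamonds the difference without WT replicate 1; the deficit under 20% shrinks from -2.05 with all CpGs to -0.732 with at least 10 reads per CpG and to -0.413 with CpGs covered in all 4 libraries.

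Among genomic contexts, densely covered repeats differed by a similar amount under each of the choices given here. Tiles with 20 or more covered CpGs of which at least 50% lay in soft-masked sequence numbered 4647. Their mean level was 92.2% and 92.1% in WT and 92.7% and 92.6% in hSTAT5B, so that both hSTAT5B libraries were above both WT libraries. The difference was 0.496 percentage points (exact permutation test, p = 0.333, the smallest possible), 0.520 with at least 10 reads per CpG, and 0.441 on CpGs covered in all 4 libraries. Without WT replicate 1 it was 0.591, and 0.519 on the shared CpGs. The class was defined after related values had been seen. The 3198 equally dense tiles with less soft-masked sequence differed by 0.001.

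Tiles grouped by genes, exons, and distance to a CGI differed by less than the WT libraries did from each other. Tiles inside genes differed by 0.110 percentage points and tiles outside genes by 0.173. Tiles with at least 50% of their CpGs in exons differed by 0.098. Tiles less than 2 kb from a CGI, which were at 62.3% and 62.5% in WT and 62.5% and 62.4% in hSTAT5B, differed by 0.053, and tiles over 100 kb from one by 0.201. All of these were negative without WT replicate 1. All 7845 tiles with 20 or more covered CpGs, which include the repeat-rich ones above, were at 84.9% and 84.97% in WT and at 85.3% and 85.2% in hSTAT5B, a difference of 0.294, or 0.281 without WT replicate 1 and 0.288 on shared CpGs.

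Levels were also compared over single CpGs. Over the 745125 CpGs covered in all 4 libraries the mean level was 86.8% and 87.3% in WT and 87.3% and 87.2% in hSTAT5B. Of these, 191003 had 3 or more other CpGs within 35 bp and G or C on at least one side, and were at 86.0% and 86.1% in WT and 86.5% and 86.4% in hSTAT5B. Their difference was 0.363 percentage points, and 0.302 without WT replicate 1. The 5102 isolated CpGs, with A or T on both sides and no other CpG within 35 bp, are the kind that loses methylation first in dividing cells. They were at 80.3% and 81.6% in WT and at 80.5% and 80.6% in hSTAT5B, a difference of -0.356 that lay between the WT libraries. The STAT5 consensus TTCNNNGAA, which reads the same on both strands, was centred within 100 bp of 40211 CpGs (5.40%). These CpGs were at 85.6% and 86.2% in WT and at 86.0% and 85.9% in hSTAT5B, and the remaining 704914 at 86.9% and 87.4% in WT and at 87.4% and 87.3% in hSTAT5B. The level was lower near the consensus in each of the 4 libraries, and hSTAT5B lay between the WT libraries in both sets.

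The tiles with the widest gaps were named from the 16462 tiles with at least 10 CpGs in every library. The gap is the smallest of the 4 differences between a library of one genotype and a library of the other. It was at least 10 percentage points at 18 tiles on the higher side (0.109% of these tiles) and at 36 on the lower side (0.219%), and at 42 and 47 tiles in the mixed groupings. The largest gaps were 16.6 and -21.6 percentage points between genotypes and 28.4 and -20.4 in the mixed groupings. The 8 tiles with the widest gap on either side had differences of 13.2 to 28.3 percentage points in size and limma adjusted p-values of 0.891 to 0.967. Only 7 of these 16 were still at least 10 percentage points apart with no overlap on the CpGs that all 4 libraries covered, and 9 were under 5.

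Among the 7 were tiles in Plcg2, the phospholipase C of B cell receptor signaling, in Lef1, in and next to Btd, which encodes biotinidase, and near Smad7, the inhibitor of TGF-beta signaling. The Btd tile had 47.3% and 49.9% in WT and 63.7% and 65.7% in hSTAT5B on 9 shared CpGs. The tile in Rrp12, a factor of ribosome biogenesis, had 40.9% and 23.0% in WT and 20.7% and 20.6% in hSTAT5B, so that WT replicate 1 alone was far from the other 3 libraries. The tiles in Camk2b, a calcium/calmodulin-dependent kinase, and 85.4 kb from Myo10, an unconventional myosin, made up the 7. In contrast, the tile 14.8 kb from the start of Pdik1l had 26.6% and 34.8% in WT and 6.32% and 0.366% in hSTAT5B over all its CpGs, whereas its 9 shared CpGs had 1.52% and 0.452% in WT and 1.48% and 0.447% in hSTAT5B. The tile in Wnt10b, a ligand of the WNT pathway, was 16.9 percentage points higher in hSTAT5B with all CpGs and 1.08 higher on 12 shared ones. The tile in Cacna1g, a T-type calcium channel, differed by -24.6 percentage points with all CpGs, and on 7 shared CpGs hSTAT5B was at 88.6% and 99.2% on either side of WT at 96.5% and 94.3%.

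**Figure D3:**
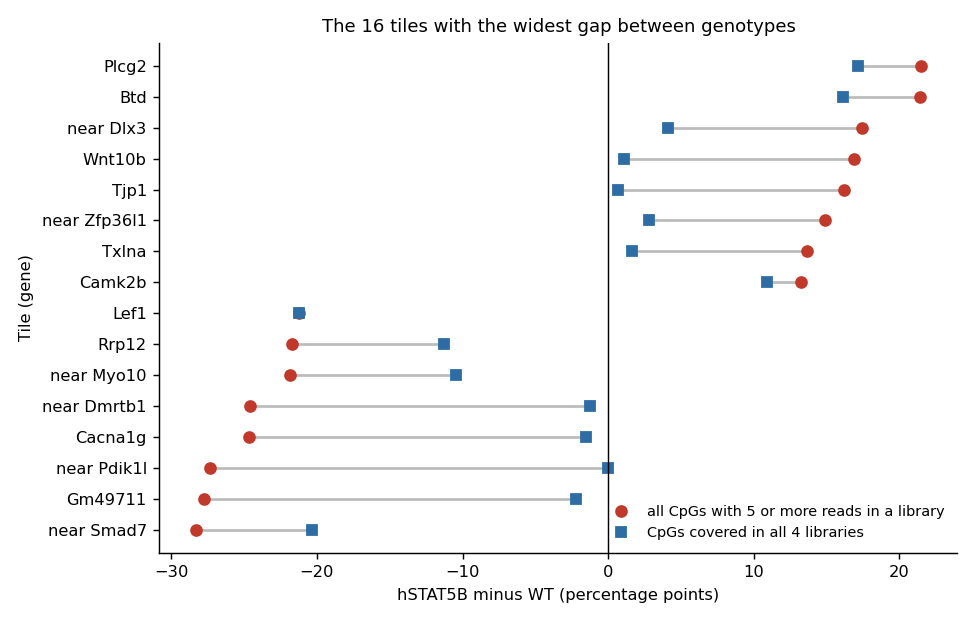
Difference in level, hSTAT5B minus WT (percentage points), at the 16 tiles with the widest gap, over all covered CpGs (circles) and over CpGs covered in all 4 libraries (squares). At 9 of the 16 tiles the square lies within 5 percentage points of 0.

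The 3 tiles in each direction with the smallest unadjusted p in limma had 3 to 14 covered CpGs per library. In Epb41l3, a cytoskeletal adaptor, the levels were 78.2% and 80.5% in WT and 100% and 99.7% in hSTAT5B (limma, unadjusted p = 0.000215, adjusted p = 0.891), but 100% and 96.5% in WT and 100% and 99.4% in hSTAT5B on 7 shared CpGs. In Fry, a regulator of cell shape, they were 81.3% and 78.6% in WT and 100% in both hSTAT5B libraries, with fewer than 3 shared CpGs. In Tmod3, which caps actin filaments, they were 97.7% and 94.8% in WT and 100% in both hSTAT5B libraries. On the lower side, the tile at Ttc25 had 100% in both WT libraries and 89.3% and 66.7% in hSTAT5B from 3 CpGs each. The tile 34.1 kb from Foxk1 had 39.2% and 48.4% in WT and 0% in both hSTAT5B libraries, while its 3 shared CpGs were unmethylated in all 4 libraries. The tile in Prkag2, a subunit of the energy sensor AMPK, had 100% and 99.4% in WT and 89.0% and 84.9% in hSTAT5B on the same 4 CpGs in every library. The adjusted p in limma was 0.891 for all 6.

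The rule of the widest gap was then applied to the 14391 tiles with at least 10 shared CpGs, a choice made after the above had been seen. A gap of at least 10 percentage points was found at 5 tiles on the higher side (0.0347%) and at 7 on the lower (0.0486%), and at 11 and 12 tiles in the mixed groupings. At 5 percentage points the counts were 154, 80 higher and 74 lower, against 118 and 129. The 8 widest on either side are described because their levels rest on the same CpGs in all libraries. In the limma test over all covered CpGs, not the shared ones, the adjusted p-values of these tiles were 0.891 to 0.966. Protein-coding genes overlapped 11 of the 16.

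On the higher side, the tile at Tbx21 (chr11:97095001-97100000) was at 44.97% and 52.02% in WT and at 70.1% and 65.2% in hSTAT5B over 11 CpGs. Over all covered CpGs it was at 56.2% and 52.0% in WT, 72.4% and 65.2% in hSTAT5B, and 73.8% and 65.7% in hSTAT5B N642H. On shared CpGs, the tile in Irf8 (chr8:120745001-120750000) was at 66.1% and 77.8% in WT and at 88.9% and 87.5% in hSTAT5B. The tile near Gli2 (chr1:119095001-119100000) had 55.0% and 61.1% in WT and 79.3% and 72.6% in hSTAT5B. In each of these 3 tiles the stretch printed above was farther apart between genotypes than the tile as a whole.

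Plcg2 (chr8:117525001-117530000) had 50.2% and 45.4% in WT and 61.2% and 68.6% in hSTAT5B. Cuedc1 (chr11:88190001-88195000), which encodes a ubiquitin-binding CUE domain protein, had the lowest levels of the group, at 13.5% and 17.6% in WT and 28.6% and 27.3% in hSTAT5B, from 22 CpGs and 529 to 753 reads per library over all its CpGs. Cdc42ep1, an effector of the GTPase CDC42, had 31.1% and 31.7% in WT and 43.7% and 48.4% in hSTAT5B. In Cuedc1 and Cdc42ep1 the replicates lay within 5 percentage points of each other on these shared CpGs. Stx8, a SNARE protein of endosomes, had 74.7% and 67.7% in WT and 84.4% and 84.2% in hSTAT5B, and the tile near Pcdhb2, a protocadherin, had 64.8% and 63.4% in WT and 85.4% and 78.7% in hSTAT5B. Over all covered CpGs the hSTAT5B libraries were at 46.0% and 64.1% in Cdc42ep1, and the WT libraries at 13.5% and 20.3% in Cuedc1.

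On the lower side, the intronic tile of Lef1 (chr3:131160001-131165000) was at 70.98% and 54.2% in WT and at 43.7% and 39.1% in hSTAT5B over 12 CpGs. Over all covered CpGs it was at 67.6% and 60.8% in WT, 43.7% and 42.2% in hSTAT5B, and 56.4% and 63.7% in hSTAT5B N642H. On shared CpGs, the tile near Smad7 had 55.0% and 42.2% in WT and 29.8% and 26.7% in hSTAT5B. In both tiles WT replicate 1 was the highest library. Zfp683 (chr4:134055001-134060000), which encodes Hobit, a transcription factor of tissue-resident memory T cells, was at 62.0% and 64.5% in WT and at 52.2% in both hSTAT5B libraries over 14 CpGs. Over all covered CpGs the tile was at 66.8% and 66.2% in WT, 56.1% and 40.6% in hSTAT5B, and 44.8% and 41.6% in hSTAT5B N642H.

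The tile near Csl (chr10:99600001-99605000) had 97.9% and 92.5% in WT and 77.2% and 68.2% in hSTAT5B over 14 CpGs, a difference of -22.5 percentage points that was -3.38 with the reads of the tile pooled. Hs3st3b1 (chr11:63915001-63920000) had 42.3% and 39.6% in WT and 28.4% and 29.0% in hSTAT5B. Ksr2 (chr5:117590001-117595000) had 87.5% in both WT libraries and 76.8% and 76.4% in hSTAT5B, although over all covered CpGs it differed by only -3.51 percentage points. The tiles near Neurog1, a neuronal transcription factor, and near Fgfr4, a receptor of fibroblast growth factors, differed by -16.1 and -12.6 percentage points. Values from hSTAT5B N642H stand beside these only as levels, since both transgenic genotypes would be set against the same WT libraries.

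**Figure D4:**
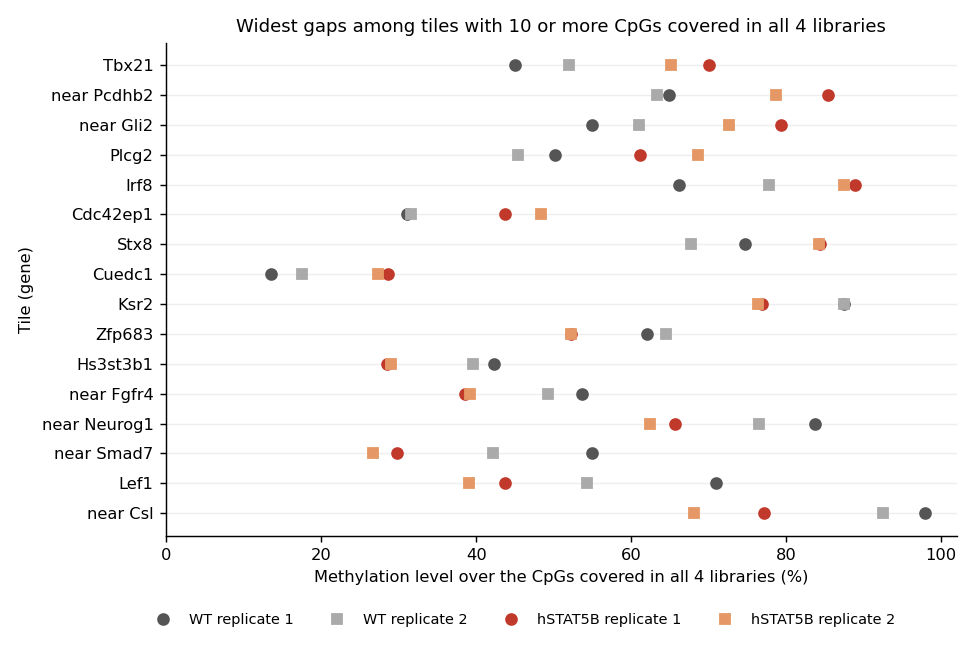
Methylation level (%) of each of the 4 libraries at the 16 tiles with the widest gap over CpGs covered in all 4 libraries, 8 higher (top) and 8 lower (bottom) in hSTAT5B. Replicates of a genotype lie close at Ksr2, Hs3st3b1, and Cuedc1, whereas WT replicate 1 is far above WT replicate 2 at Lef1 (70.98% and 54.2%) and near Smad7 (55.0% and 42.2%).

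Tiles in or within 10 kb of 133 listed genes were described by list, with 116 of the genes having tiles. Among targets of STAT5, 75 tiles had a median difference of -0.09 percentage points, beside 0.20 over all tiles, and 7 were at least 5 percentage points higher with no overlap and 8 lower (9.33% and 10.7%, beside 8.02% and 7.37% of all tiles). On shared CpGs, 70 tiles remained with a median of 0.14, 4 higher and 3 lower (5.71% and 4.29%, beside 6.24% and 5.75%). The share of these tiles was thus near that of all tiles.

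Cish, a feedback inhibitor of STAT5 signaling and one of its best known targets (ENSMUSG00000032578.7, chr9:107296026-107302784), had levels of 94.7% and 92.9% in WT and 98.3% and 100% in hSTAT5B on 4 shared CpGs at the tile from 107300001, and 85.3% and 91.5% in WT and 93.2% and 88.8% in hSTAT5B on 8 shared CpGs at the tile next to it. With all CpGs the second tile differed by 12.5 percentage points, and by 2.62 on the shared ones. Socs1, an inhibitor of JAK kinases, was at 97.7% and 87.1% in WT and 81.9% and 84.7% in hSTAT5B on 5 shared CpGs 11.8 kb from its start. The kinase gene Pim1 had tiles with opposite differences. The tile at chr17:29490001-29495000 was at 4.62% and 6.48% in WT and 9.43% and 12.8% in hSTAT5B, and the tile after it was at 45.5% and 42.7% in WT and 37.1% and 37.5% in hSTAT5B. A tile near Bcl6, a repressor that STAT5 opposes in T cells, was at 26.1% and 21.2% in WT and 15.2% and 12.7% in hSTAT5B. At Il2ra, the IL-2 receptor alpha chain, 4 of 4 tiles were slightly higher in hSTAT5B, by a median of 2.33 percentage points on shared CpGs, and none reached 5. The tile of Ccnd2, a D-type cyclin, with the most covered CpGs was nearly unmethylated at 5.90% and 3.20% in WT and 2.97% and 1.63% in hSTAT5B over 21 shared CpGs. In the limma test over all covered CpGs the adjusted p was at least 0.891 at every tile of these genes.

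Genes of the common gamma chain receptors and of JAK-STAT signaling had 66 tiles with a median of 0.47 percentage points, 5 higher and 6 lower past 5 with no overlap (7.58% and 9.09%, beside 8.02% and 7.37% of all tiles). On shared CpGs it was 63 tiles, a median of 0.37, and 5 higher and 4 lower (7.94% and 6.35%, beside 6.24% and 5.75%). A tile 10.7 kb from the start of Il2rb, the beta chain shared by the IL-2 and IL-15 receptors, had 97.4% and 97% in WT and 93.3% and 86.4% in hSTAT5B on 4 CpGs. Enzymes of DNA methylation and polycomb proteins had 59 tiles, a median of 0.03, and 4 higher and 6 lower (6.78% and 10.2%), and on shared CpGs 3 higher and 5 lower (5.08% and 8.47%), beside the same shares of all tiles. In Tet3, which oxidizes 5-methylcytosine, a tile had 76.1% and 75.5% in WT and 62.2% and 62.1% in hSTAT5B on 4 shared CpGs. A tile of Suz12, a subunit of polycomb repressive complex PRC2, differed by -29.6 percentage points with all CpGs and by -3.89 on 3 shared ones, where the replicates overlapped.

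The vector carries Vav1 regulatory sequence and human STAT5B, so that reads from it cannot be told apart from reads of the mouse genes where both are alike. Vav1 and Stat5b had 15 tiles, of which 3 were higher and 0 lower past 5 percentage points with no overlap on shared CpGs (20%, beside 6.24%). These were 2 tiles of Stat5b and 1 downstream of Vav1. With all CpGs 2 of the 15 tiles were higher and 0 lower (13.3%, beside 8.02% of all tiles). The Stat5b tile at chr11:100795001-100800000, in which exon CpGs were covered, was at 85.8% and 81.9% in WT and 89.4% and 89.9% in hSTAT5B. Over all its covered CpGs this tile had 205 and 246 reads in WT, at 8 and 7 CpGs, and 1133 and 1127 reads in hSTAT5B, at 13 CpGs in each library. In Vav1, the tile at chr17:57290001-57295000 was at 4.04% and 3.96% in WT and 7.55% and 7.20% in hSTAT5B on 6 CpGs. Over all its covered CpGs, hSTAT5B N642H was at 19.2% and 6.99%, and the tile had 266 and 361 reads in WT and 4937 and 4878 in hSTAT5B. The part that reads of the vector had in these levels was not tested. The tile just upstream of its start had 3.02% and 13.2% in WT and 25.9% and 21.6% in hSTAT5B with all CpGs, but 2% and 4% in WT and 4% and 0% in hSTAT5B on 5 shared CpGs.

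**Figure D5:**
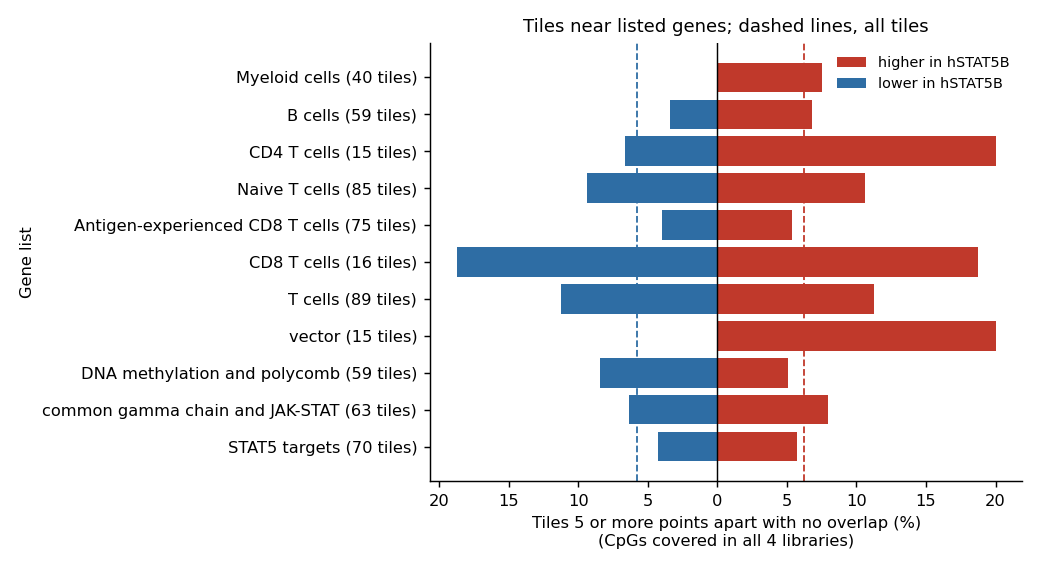
Share of tiles (%) near the genes of each list that were at least 5 percentage points apart with no overlap between genotypes, over CpGs covered in all 4 libraries, drawn to the right where higher and to the left where lower in hSTAT5B. Dashed lines mark the shares over all 99599 tiles, 6.24% and 5.75%; the lists of 15 or 16 tiles reach the largest shares from 3 tiles each.

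Genes of T cells had 96 tiles, with 10 higher and 16 lower (10.4% and 16.7%, beside 8.02% and 7.37% of all tiles). On shared CpGs 89 tiles had 10 higher and 10 lower (11.2% each, beside 6.24% and 5.75% of all tiles). Their mean level was lower than that of all tiles, and tiles at 20 to 50% had larger SDs in every grouping, 10.2 percentage points between genotypes and 9.88 and 9.58 in the mixed groupings. The part that this had in the shares was not tested. Bcl11b, a transcription factor that T cells need for commitment and identity (ENSMUSG00000048251.15, chr12:107910403-108003602), had the most tiles of this list, 21, with 1 higher and 7 lower with all CpGs and 1 higher and 2 lower on shared ones. At any size 9 were higher and 12 lower on shared CpGs, with a median of -0.77. Its tile with the most covered CpGs, at chr12:107960001-107965000, had 21 shared CpGs, on which the genotypes overlapped. The levels there were 62.6% and 46.2% in WT and 48.9% and 52.9% in hSTAT5B. The tile at chr12:107995001-108000000 was at 28.2% and 28.6% in WT and 13.8% and 12.9% in hSTAT5B on 4 shared CpGs, and hSTAT5B N642H was at 10.1% and 7.38% over all its CpGs. The tile before it was at 35.2% and 22.6% in WT and 18.5% and 13.7% in hSTAT5B on 9. Upstream of the start of this minus-strand gene, the tile at chr12:108005001-108010000 was at 13.2% and 6.51% in WT and 19.7% and 18.3% in hSTAT5B.

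Gata3, a transcription factor of T cell development and type 2 helper cells (chr2:9857078-9890034), had 6 tiles on shared CpGs. Of these, 0 were higher and 2 lower past 5 percentage points with no overlap, beside 6.24% and 5.75% of all tiles. At any size 3 were higher and 3 lower, with a median of -1.12. Of the 2 lower ones, the tile at chr2:9860001-9865000 was at 97.6% and 94.7% in WT and 90.4% and 83.9% in hSTAT5B on 8 shared CpGs. Over all its covered CpGs, which need not be those 8, hSTAT5B N642H was at 65.5% and 59.3%. The tile at chr2:9885001-9890000 was at 48.7% and 70.1% in WT and 33.4% and 44.6% in hSTAT5B on 3. For Cd27, a costimulatory receptor with 1 tile, the levels were 60.6% and 46.8% in WT and 40.2% and 40.5% in hSTAT5B on 3 shared CpGs. Other genes of the list went both ways by the same count on shared CpGs. Zap70 had 2 higher and 0 lower among 7 tiles, and Lef1 had 2 higher and 1 lower among 16. Cd6, Cd28, Cd247, and Satb1 had 1 higher and 0 lower each. Cd2, Cd5, and Thy1 had 0 higher and 1 lower each, and Lck had 1 of either.

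Genes of naive T cells had 98 tiles with 11 higher and 11 lower (11.2% each, beside 8.02% and 7.37% of all tiles), and on shared CpGs 85 tiles with 9 higher and 8 lower (10.6% and 9.41%, beside 6.24% and 5.75%). The tiles of single genes went both ways. Lef1 had, besides its lower intronic tile, a tile 8.09 kb from a start at 76.5% and 88.4% in WT and 93.3% and 92.5% in hSTAT5B on 7 shared CpGs, and another in the gene at 74.2% and 74.0% in WT and 83.1% and 81.5% in hSTAT5B on 10. Foxp1 had the most tiles of this list, 34 on shared CpGs, with 4 higher and 2 lower. Bach2, a repressor that holds T cells in a quiescent state, had 2 tiles higher and 3 lower among 16 on shared CpGs. Among the lower ones, 1 was at 93.0% and 91.7% in WT and 69.7% and 78.4% in hSTAT5B. Another was at 96.7% in both WT libraries and 84.3% and 87.0% in hSTAT5B, and each rested on 3 shared CpGs. Klf2 and S1pr1, which act in the exit of T cells from lymphoid tissue, had only 1 and 2 tiles on shared CpGs, with 1 lower each. The lower tile was at 82.5% and 89.6% in WT and 80.4% and 76.1% in hSTAT5B for Klf2. For S1pr1 it was at 13.3% and 20.9% in WT and 10.3% and 8.28% in hSTAT5B. A tile 9.46 kb from Tcf7, which encodes TCF-1, had 54.2% and 44.7% in WT and 88.9% and 100% in hSTAT5B with all CpGs, and fewer than 3 shared CpGs.

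Genes of antigen-experienced CD8+ T cells had 78 tiles with a median of 0.04 percentage points. Of these, 10 were higher and 8 lower (12.8% and 10.3%, beside 8.02% and 7.37% of all tiles). On shared CpGs 75 tiles had 4 higher and 3 lower (5.33% and 4%, beside 6.24% and 5.75%). Besides the tile at Tbx21, a tile 8.20 kb from Eomes, the other T-box factor of effector and memory cells, was higher, with 81.1% and 71.8% in WT and 93.1% and 86.6% in hSTAT5B on 3 shared CpGs. The tile near Tbx21 with the most covered CpGs, at chr11:97125001-97130000, was alike in all libraries, with 22.6% and 22.9% in WT and 20.9% and 24.0% in hSTAT5B over 21 shared CpGs. A tile near Prdm1, which encodes BLIMP-1, had 83.8% and 93.0% in WT and 79.4% and 75% in hSTAT5B on 4.

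Runx3, which directs CD8 lineage choice, had 3 tiles higher and 3 lower among 14 on shared CpGs, beside 6.24% and 5.75% of all tiles. Its tile at chr4:135115001-135120000 was at 86.5% and 84.8% in WT and 80.1% and 78.9% in hSTAT5B, and its tile at chr4:135140001-135145000 at 3.42% and 6.75% in WT and 6.26% and 15.5% in hSTAT5B, where the genotypes overlapped. Genes of other cell types were read in the same way. Of 59 tiles near B cell genes 4 were higher and 2 lower on shared CpGs (6.78% and 3.39%, beside 6.24% and 5.75% of all tiles), with a median of 0.82 percentage points. Of 40 tiles near myeloid genes 3 were higher and 0 lower (7.5% and 0%), with a median of 1.18. With all CpGs 8 of 63 tiles near B cell genes were higher and 6 lower (12.7% and 9.52%, beside 8.02% and 7.37% of all tiles). Near myeloid genes 6 of 41 tiles were higher and 2 lower (14.6% and 4.88%). The medians were then 0.33 and -0.49, so that the direction near myeloid genes depended on the choice of CpGs. Near genes of CD4 T cells 15 tiles had 3 higher and 1 lower on shared CpGs (20% and 6.67%, beside 6.24% and 5.75% of all tiles). With all CpGs 2 were higher and 0 lower (13.3% and 0%, beside 8.02% and 7.37%). On shared CpGs the 2 higher at Cd4 itself were at 81.7% and 75.7% in WT against 85.8% and 90.6% in hSTAT5B and at 82.0% and 94.8% in WT against 95.8% and 97.3% in hSTAT5B. Whether the mixture of cells had a part in these differences was not tested.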

How the data were processed

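RRBS of CD8+ T cells from 2 WT and 2 hSTAT5B mice was compared, grouped by the sample labels. The authors trimmed reads with Trimmomatic and aligned them to GRCm38 with BSMAP, per the labels, and made levels per CpG with their own code. Tool versions are not given in the sources used here. The deposited files hold, per CpG, methylated and total read counts with both strands combined and not normalized, and a score, which is the methylated share on a scale to 1000 and was used only to check the counts.

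CGIs were called on the soft-masked sequence by the UCSC rule (17 for a CpG, -1 otherwise, over 200 bp, GC over 50%, observed/expected over 0.6), which gave 16191. Each of the 4175106 positions listed in any file is a CG there. Genes and starts are those of GENCODE M21. Tile levels are means over CpGs with at least 5 reads, and genotype means are compared with 2-sided exact permutation tests. For each tile, limma 3.58.1 (R 4.3.3) was run on log2((methylated reads + 1)/(unmethylated reads + 1)), with Benjamini-Hochberg adjustment over all tiles. The code was tested on simulated data. p-values of the permutation test, limma, and the quasi-binomial model rest on 2 mice per genotype. limma and the quasi-binomial model moderate the variance across tiles, and Fisher's exact test on pooled reads leaves out the spread between mice.

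The members, gene lists, and tests were chosen with earlier results of these data known. Tiles named are the 8 per direction with the widest gap among tiles with at least 10 CpGs, and the 3 per direction with the smallest p. For the gene lists, the tiles with the most covered CpGs and those at least 5 percentage points apart with no overlap were looked at, the latter after their values were seen. The use of shared CpGs for named tiles, lists, and classes, the naming of tiles on shared CpGs, and the class of densely covered repeats were also added after seeing the data. Alternatives were at least 10 reads per CpG, at least 5 or 10 CpGs per library, shared CpGs, pooled reads, a distance of 2 kb, tiles of 2 kb, no soft-masked CpGs, no CpGs of 1000 or more reads, leaving out each library, and other models. Replicate numbers were not used to pair the mice, because the sample titles give a number and no pairing. The replicate differences of the genotypes correlated at 0.00818 across tiles, which cannot show whether mice of 1 number were handled together. Tiles were built in Python 3.11.15 with pandas 2.3.3, numpy 2.4.6, and scipy 1.17.1, and plots drawn with matplotlib 3.10.9.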

Additional observations from a re-analysis of the deposited data

How the results depend on the processing

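The mean difference of 0.143 percentage points turned to -0.141 without WT replicate 1 and was between -0.141 and 0.427 with each library left out, while it stayed positive under the 8 other settings. The number of tiles at least 5 percentage points apart, 25523, became 13050 with at least 10 reads per CpG and 10480 with at least 5 CpGs per library. These settings test fewer tiles, and the share fell as well, from 24.0% to 18.1% and 18.9%. Tiles at least 10 percentage points apart, 7370 in number (6.94%), became 3368 (4.68%) and 2583 (4.67%) under these settings. They were 3729 (3.74%) on CpGs covered in all 4 libraries, and 4653 (4.38%) with pooled reads. With each library left out they were 9693 to 12555, and the share of tiles with no overlap was 63.8% to 66.7%, since 3 libraries overlap less often than 4. Without WT replicate 2 the tiles past 10 numbered 12555, and without hSTAT5B replicate 1 they numbered 11407. limma called 0 tiles under each alternative run with it, with 940 (at least 10 CpGs per library, 16462 tiles tested) to 6570 tiles at an unadjusted p under 0.05, and the quasi-binomial model called 0. Fisher's exact test on pooled reads, which leaves out the spread between mice, called 5677. With the replicate number as a replicate block, limma called 0 tiles (smallest adjusted p = 0.905), and whether the numbers pair the mice is not known.

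Of the 16 tiles named by their all-CpG difference, 13 shifted by more than the spread between replicates with pooled reads, 14 on CpGs covered in all 4 libraries, and 13 with at least 10 reads per CpG, where 15 could be computed. Depth limits single tiles, with a median of 5 to 6 CpGs per tile and library, and 2 libraries against 2 cannot give an exact permutation p under 0.333. A tile mean with all CpGs compares partly different CpGs in each library.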
